A study of Homo sapiens with 6 samples.

Results

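The ADAM proteins (a disintegrin and metalloprotease) are membrane-anchored proteins of the cell surface, and 9 of them were listed for description: ADAM8, ADAM9, ADAM10, ADAM12, ADAM15, ADAM17, ADAM19, ADAM22 and ADAM23. They were chosen by name, with the fold changes of the comparison described here already known. Their fold changes and adjusted p-values are therefore a description taken from a fit over the whole table, and support nothing beyond it. Of the 9, 8 had a row among the 15706 genes of the deposited table, and ADAM23 is not analysed here. All 8 passed the filter on low values, a mean of at least 10 normalized counts, together with 14618 genes in all.

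The RNA came from MDA-MB-231, a triple-negative breast cancer cell line of mesenchymal character. The control group (3 libraries) is labelled sgNT and wild type. The knockout group (3 libraries) is labelled sgMLL3, which names guide RNA against MLL3 (gene symbol KMT2C), a histone H3 lysine 4 methyltransferase of enhancers. Both groups were grown in DMEM with 10% FBS and received no treatment. Biological replicate numbers 1 to 3 are given in each group by the labels, beside the same numbers as #1 to #3 after sgNT and sgMLL3. Whether #1 to #3 mark different guides is not stated. Neither the use of clones or pools nor separate cultures for the libraries is stated, so p-values measure the spread between these libraries only. The series asks how MLL3 loss bears on metastasis and a hybrid epithelial-mesenchymal state.

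ADAM proteases are made as inactive precursors, and furin-like convertases remove the inhibitory prodomain on the way to the surface. The active enzymes cut other membrane proteins close to the membrane. Such shedding releases growth factors and cytokines, starts NOTCH signalling, and removes adhesion molecules from the cell. ADAM10 and ADAM17 have the broadest known sets of substrates. ADAM22 and ADAM23 keep the domain layout but are known as binding proteins without protease activity.

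The catalytic domain holds its zinc ion with 3 histidines, beside a glutamate that takes part in catalysis, in a stretch known as the metzincin zinc-binding motif. This stretch is shown because it separates the proteases among the members from the others. Its letters also show how the members differ in base composition, which is set beside the fold changes below. The motif was searched on the sense strand, in the translated longest coding sequence of each member in GENCODE 29 (GRCh38). It was found once in each of ADAM8, ADAM9, ADAM10, ADAM12, ADAM15, ADAM17 and ADAM19 and not in ADAM22 or ADAM23. For ADAM22 the stretch aligned with the motif of ADAM12 is given. Capitals mark the codons of the 4 zinc-site residues, or those aligned with them.

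ADAM10: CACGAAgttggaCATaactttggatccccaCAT
ADAM17: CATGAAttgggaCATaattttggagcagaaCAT
ADAM8: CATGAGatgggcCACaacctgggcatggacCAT
ADAM15: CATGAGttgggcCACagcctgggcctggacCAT
ADAM19: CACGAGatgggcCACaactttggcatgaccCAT
ADAM12: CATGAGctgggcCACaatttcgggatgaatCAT
ADAM22: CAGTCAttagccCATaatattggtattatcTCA

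In the ADAM22 stretch 1 of the 4 residues was kept, and in that of ADAM23, aligned likewise, 0 of 4. The stretches lie within coding exons. Their positions were chr2:9510078-9510110 for ADAM17 (minus strand, exon 11 of 19), chr10:133271880-133271912 for ADAM8 (minus, exon 11 of 23) and chr1:155056995-155057027 for ADAM15 (plus, exon 11 of 23). They were chr5:157505734-157505766 for ADAM19 (minus, exon 11 of 22), chr10:126094059-126094091 for ADAM12 (minus, exon 11 of 23) and chr7:88134365-88134397 for ADAM22 (plus, exon 13 of 31). The ADAM10 stretch is split by an intron between exons 9 and 10 of 16 (chr15:58627881-58633225, minus). G and C made up 36.4% of the 33 bases in ADAM17, 45.5% in ADAM10, 57.6% in ADAM8 and 63.6% in ADAM15. The stretches of ADAM22, ADAM12 and ADAM19 had 33.3%, 48.5% and 54.5%. Over the whole coding sequence the order was not the same, but the same members were low and high in GC, from 41.7% in ADAM10, 44.5% in ADAM9, 44.7% in ADAM17 and 44.9% in ADAM22 to 54.0% in ADAM12, 57.6% in ADAM19, 61.9% in ADAM15 and 65.9% in ADAM8.

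The libraries held 41240265 to 49514464 reads in the listed genes. KMT2C, the targeted gene, stood at 1367, 1379 and 1255 normalized counts in the control libraries and 1519, 1660 and 1339 in the knockout libraries (log2 fold change 0.17, SE 0.10, limma adjusted p = 0.2), so its transcript does not check the labels. All 6 markers of the line were present, each at 13236 counts or more in every library. They summed to 201503 to 215448 in control and 180698 to 193643 in knockout libraries, with AXL called lower (-0.28, adjusted p = 0.012) and the other 5 not called. CDH1 was at 2.11 to 7.52. ESR1 and PGR are not among the rows used here. The summed markers of other cell types were low, and lower in every knockout library than in any control library. Called lower were CD14 among the leukocyte markers, KDR among the endothelial markers and PDGFRB, COL1A1 and COL1A2 among the fibroblast markers. Of all tested genes, 14.4% were called lower, and for 46.3% the groups did not overlap, in either direction. LYZ and VWF fell below the filter on low values and were not tested. The 6 leukocyte markers with a row (of 8) summed to 865 to 1056 counts in control and 582 to 722 in knockout libraries, the 3 endothelial markers (of 4) to 222 to 292 and 166 to 207, and the 3 fibroblast markers (of 7) to 1672 to 1836 and 957 to 1051. PTPRC, a leukocyte marker, ranged from 197 to 302. CD68, CDH5, PDGFRA, DCN, LUM and FAP are not analysed here. The labels name a cultured cell line only, and these counts do not show which cells they came from. In such bulk RNA, cell number and RNA per cell cannot be told apart. The part of these markers in the ADAM results was not tested.

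Values below are normalized read counts (reads divided by the size factor of the library), with mean ± SD over n = 3 libraries a group. Fold changes are knockout minus control on the log2(count + 1) scale, with the standard error (SE) and the adjusted p of limma. A gene is called where that adjusted p is under 0.05.

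The 2 groups of libraries differed in most ADAM transcripts, and in both directions. ADAM9, ADAM10 and ADAM17 were higher in the knockout libraries and ADAM8, ADAM15 and ADAM19 lower. ADAM12 and ADAM22 were not called. The 3 members called higher and the 3 called lower, of 8, stand beside 18.9% of all tested genes called higher and 14.4% called lower. Nothing is read from that difference, since the members were chosen with this contrast known. Control and knockout values lay apart without overlap for 6 of the 8 members, beside 46.3% of all tested genes. The median fold change of the members was -0.020, beside -0.017 over all tested genes. The authors' deposited table, from DESeq2, calls the same 6 members in the same directions, beside 21.1% of its genes with an adjusted p higher and 17.4% lower.

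**Figure D1:**
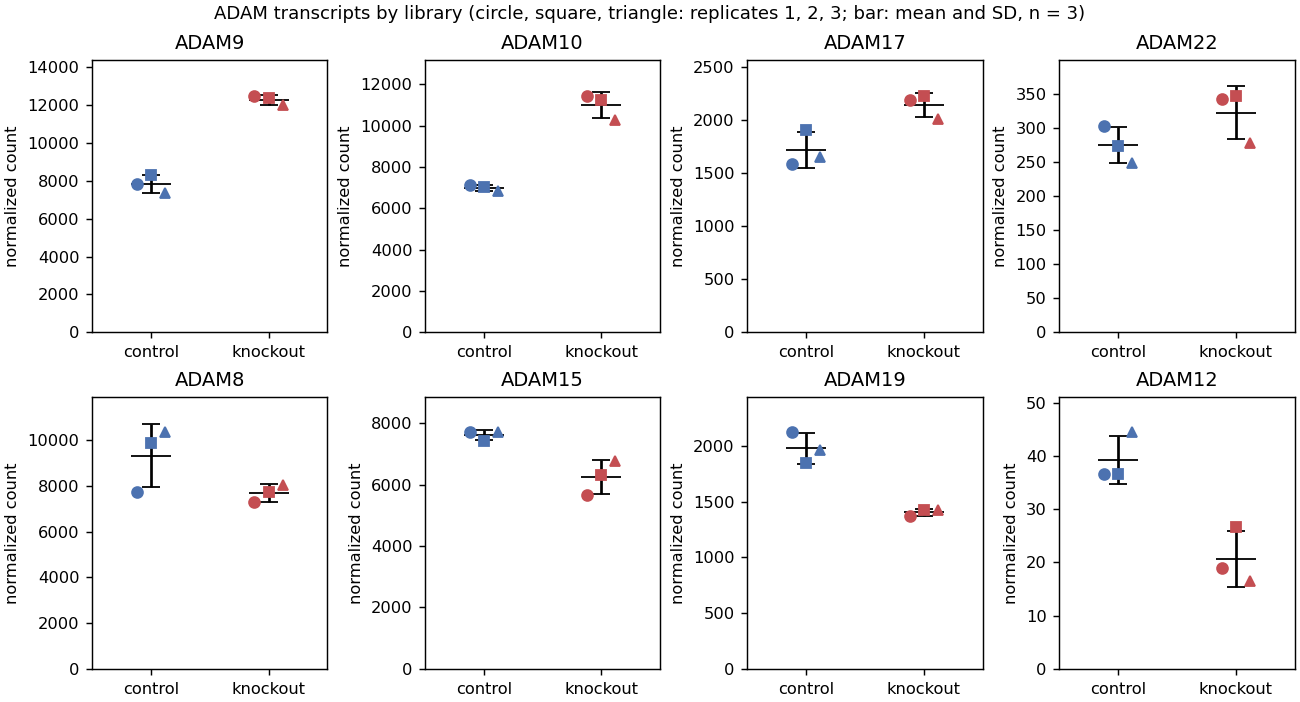
Normalized read count (linear axis from 0) of each measured ADAM member in the 3 control and 3 knockout libraries; symbols are replicates 1 to 3 and bars the mean and SD. The knockout libraries lie above all control libraries for ADAM9, ADAM10 and ADAM17 and below them for ADAM15, ADAM19 and ADAM12, while the groups overlap for ADAM22 and ADAM8.

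ADAM10 (ENSG00000137845.15, chromosome 15, 58588807 to 58749978, minus strand) is the principal alpha-secretase of the amyloid precursor protein and makes the first cut of ligand-bound NOTCH receptors. It stood at 7112, 7025 and 6821 normalized counts in control replicates 1, 2 and 3 and at 11454, 11246 and 10286 in knockout replicates 1, 2 and 3. The control libraries lay within a narrow band and every knockout library was above them, replicate 3 the least. The means were 6986 ± 149 and 10995 ± 623, a fold change of 0.65 (SE 0.077, adjusted p = 3.8e-05). The call was kept without any 1 of the 6 libraries, at 0.62 to 0.70.

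ADAM17 (ENSG00000151694.14, chromosome 2, 9488486 to 9556732, minus strand), the TNF-alpha converting enzyme, also releases ligands of the EGF receptor. Its control libraries held 1587, 1908 and 1648 normalized counts and its knockout libraries 2183, 2228 and 2011. The groups did not overlap, although control replicate 2 came close to knockout replicate 3. The means of 1714 ± 171 and 2141 ± 114 gave a fold change of 0.32 (SE 0.096, adjusted p = 0.017). Without knockout replicate 1 or 2 the call was lost, at 0.31 (adjusted p = 0.072) and 0.29 (adjusted p = 0.096).

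ADAM9 (ENSG00000168615.12, chromosome 8, 38996869 to 39105144, plus strand), also called meltrin-gamma, is a widely expressed member with its own sheddase activity. It held 7836, 8283 and 7365 normalized counts in the control libraries and 12491, 12363 and 11982 in the knockout libraries. The gap between the groups was several times the spread within either. The means rose from 7828 ± 459 to 12279 ± 265, by 0.65 (SE 0.077, adjusted p = 3.8e-05), with 0.61 to 0.69 when any 1 library was left out. Per kilobase of transcript, ADAM9 stood at 3.34 ± 0.155 times the level of ADAM10 in the control and 3.33 ± 0.121 times in the knockout libraries, so their proportion was alike in both groups.

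ADAM15 (ENSG00000143537.13, chromosome 1, 155050566 to 155062775, plus strand), metargidin, carries an RGD sequence in its disintegrin domain that binds integrins. Its values were 7703, 7413 and 7700.5 normalized counts in control and 5664, 6309 and 6753 in knockout libraries. The knockout libraries were lower and more spread than the control libraries. The means of 7606 ± 167 and 6242 ± 548 gave a fold change of -0.29 (SE 0.083, adjusted p = 0.014). The call was lost without knockout replicate 1 (-0.22, adjusted p = 0.093) or knockout replicate 2 (-0.30, adjusted p = 0.058).

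ADAM8 (ENSG00000151651.16, chromosome 10, 133262403 to 133276868, minus strand) is best known from leukocytes and has been studied in breast cancer invasion. It held 7749.7, 9849.6 and 10343 normalized counts in control libraries and 7284, 7724 and 8049.5 in knockout libraries. The groups overlapped, because control replicate 1 lay below knockout replicate 3. The means of 9314 ± 1377 and 7686 ± 384 gave a fold change of -0.27 (SE 0.097, adjusted p = 0.042), the call nearest to the threshold. It was lost without control replicate 2 or 3 or knockout replicate 1 or 2 (-0.27 to -0.19, adjusted p = 0.11 to 0.17). Without control replicate 1 it was -0.39 (adjusted p = 0.00016). It was lost after quantile normalization too (-0.21, adjusted p = 0.092).

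ADAM19 (ENSG00000135074.15, chromosome 5, 157395534 to 157575775, minus strand), meltrin-beta, is known to process neuregulin. It stood at 2121, 1849 and 1957 normalized counts in control libraries and at 1369, 1419.7 and 1422 in knockout libraries. All knockout libraries were lower, and they differed little among themselves. The means fell from 1976 ± 137 to 1404 ± 30.0, a fold change of -0.49 (SE 0.092, adjusted p = 0.00089). The call was kept without any 1 library, at -0.54 to -0.44.

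ADAM12 (ENSG00000148848.14, chromosome 10, 126012381 to 126388455, minus strand), meltrin-alpha, is expressed in mesenchymal cells and many tumours. Its level was low, at 36.6, 36.5 and 44.4 normalized counts in control and 19.0, 26.6 and 16.5 in knockout libraries. These values rest on 18 to 46 reads a library, so that counting error alone came to 23.6% in the lowest library. The groups did not overlap, and the means were 39.2 ± 4.54 and 20.7 ± 5.24. The fold change of -0.91 (SE 0.35, adjusted p = 0.052) lay just outside the threshold. It passed with a pseudocount of 8 (-0.73, adjusted p = 0.045), after quantile normalization (-0.96, adjusted p = 0.043) and without the filter on low values (adjusted p = 0.046).

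ADAM22 (ENSG00000008277.14, chromosome 7, 87934143 to 88202889, plus strand), the member without a zinc site, is a receptor for LGI1 at synapses. It held 303, 273 and 249 normalized counts in control and 342, 347 and 278 in knockout libraries. Knockout replicate 3 lay within the control range. The means were 275 ± 26.8 and 323 ± 38.7 (0.23, SE 0.15, adjusted p = 0.25).

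The sign of the fold change went with GC content across the members, of which ADAM12 and ADAM22 were not called. The longest transcripts of ADAM10, ADAM17, ADAM9 and ADAM22 had a GC content of 38.3%, 38.5%, 39.4% and 40.7%, and these 4 members had positive fold changes. Those of ADAM12, ADAM19, ADAM8 and ADAM15 had 47.0%, 53.7%, 63.8% and 63.9%, and these 4 had negative ones. Such a trend ran through the whole table, with a Spearman rho of -0.67 for GC content with the log2 fold change over 14598 genes. Genes are not replicates of each other, so no p is given. The libraries of a group differed in it too, since the rho of a library's deviation from the mean of all 6 was 0.32 to 0.65 in control and -0.68 to -0.24 in knockout libraries, with knockout replicate 3 the mildest. Whether the trend arose in the cells or in the libraries was not tested.

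**Figure D2:**
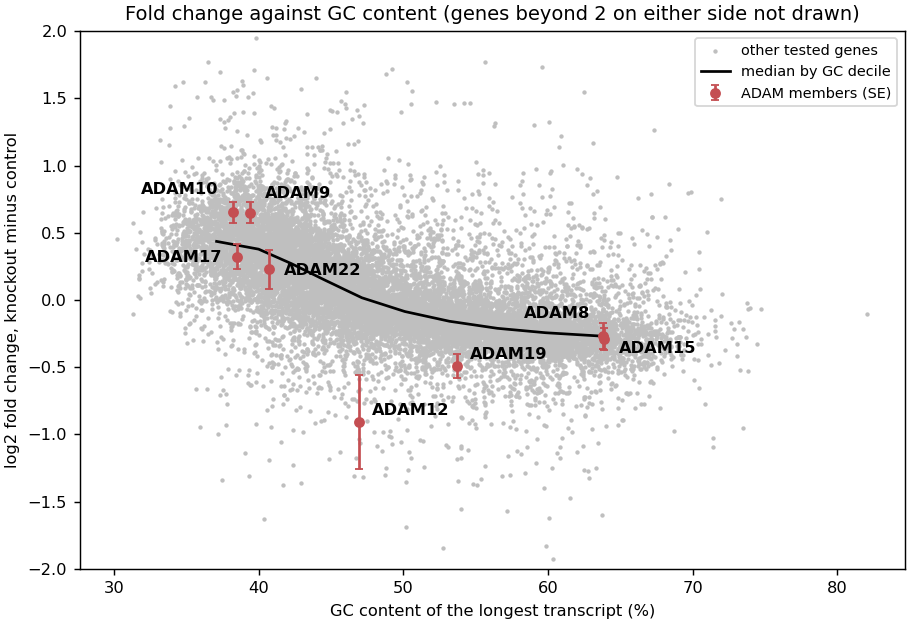
Log2 fold change (knockout minus control) against the GC content in percent of the longest transcript, for all tested genes (grey), with the median by GC decile as a line and the ADAM members with their SE in red. ADAM9 and ADAM10 lie above the line, ADAM12 and ADAM19 below it, and ADAM8 and ADAM15 on it; ADAM17 and ADAM22 lie slightly below it.

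The trend of GC content and transcript length was then subtracted from each library, and the same fit repeated. ADAM9 and ADAM10 remained called higher, at 0.27 (SE 0.054, adjusted p = 0.01) and 0.19 (SE 0.051, adjusted p = 0.037), so the fitted trend took up 0.38 and 0.46 of their fold changes of 0.65. ADAM19 remained called lower at -0.38 (SE 0.073, adjusted p = 0.0083), and the fitted trend had taken up -0.11 of its -0.49. These 2 higher and 1 lower of 8 members stand beside 4.08% of all genes higher and 5.95% lower. ADAM8 moved to -0.037 (adjusted p = 0.81) and ADAM15 to -0.069 (adjusted p = 0.47). ADAM17 changed sign to -0.11 (adjusted p = 0.44), and ADAM22 to -0.16 (adjusted p = 0.42). ADAM12 stayed at -0.99 (SE 0.32, adjusted p = 0.072). The fitted trend for ADAM12 was 0.082, opposite in sign to its fold change.

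The 3 calls that remained did not all outlast the loss of a library. With the trend removed, ADAM9 ranged from 0.24 to 0.30 and passed in 4 of 6 such fits, and ADAM10 from 0.17 to 0.22 and in 2 of 6. Without knockout replicate 2 or 3 neither was called. ADAM19 ranged from -0.42 to -0.31 and passed in 5 of 6, missing the threshold without knockout replicate 2 (adjusted p = 0.052). The longest transcripts of ADAM15 and ADAM17 are annotated as retained introns. With GC content and length taken from the longest protein-coding transcript, ADAM17 stood at 0.027 (adjusted p = 0.87) and the same 3 members were called. The direction of ADAM17 with the trend removed therefore hung on the transcript used. With the longest transcript of any type it was negative without any 1 library (-0.19 to -0.040), and without control replicate 1 it was called lower (-0.19, adjusted p = 0.021). ADAM8 was called lower in that same fit (-0.13, adjusted p = 0.041) and in none of the other 5.

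**Figure D3:**
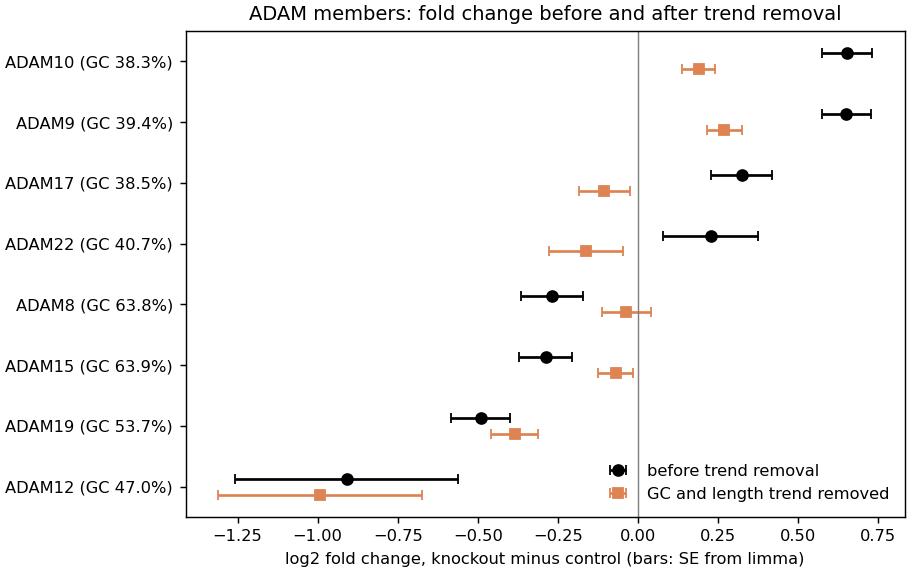
Log2 fold change (knockout minus control) of each ADAM member before (black circles) and after (orange squares) removal of the GC and length trend, with the SE of limma and the GC content of the longest transcript beside each name. ADAM9 and ADAM10 keep positive and ADAM19 and ADAM12 negative values, ADAM8 and ADAM15 come near 0, and ADAM17 and ADAM22 change sign.

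Levels of different genes were compared per kilobase of the longest protein-coding transcript. In the control libraries ADAM8 was the most abundant at 2841 ± 420 normalized counts per kb, and its range overlapped that of ADAM15 at 2579 ± 56.6. ADAM9 followed at 2039 ± 119, ADAM10 at 611 ± 13, ADAM17 at 388 ± 38.7, ADAM19 at 305 ± 21.1, ADAM22 at 29.5 ± 2.87 and ADAM12 at 4.94 ± 0.572, each with a range apart from its neighbours. In the knockout libraries ADAM9 came first at 3198 ± 69.0. ADAM8 (2344 ± 117) and ADAM15 (2117 ± 186) came next with overlapping ranges. ADAM10 was at 962 ± 54.5, ADAM17 at 485 ± 25.9, ADAM19 at 217 ± 4.63, ADAM22 at 34.6 ± 4.14 and ADAM12 at 2.61 ± 0.661. The choice of transcript mattered for ADAM15, which per kb of its longest transcript of any type stood at 1687 in control and 1385 in knockout libraries, below ADAM9. It mattered for ADAM17 too, which on that scale stood at 261 in control libraries, below ADAM19 at 305, and at 326 in knockout libraries, above it.

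The makeup of the family differed between the groups more than its sum. Summed over the 8 members, the level per kb was 8363, 9041 and 8989 in control libraries and 9143, 9464 and 9473 in knockout libraries. ADAM9 made up 23.2% ± 1.63 of that sum in control and 34.2% ± 1.33 in knockout libraries, and ADAM10 6.96% ± 0.424 and 10.3% ± 0.737. ADAM8 went from 32.2% ± 3.53 to 25.0% ± 0.819 and ADAM15 from 29.4% ± 1.74 to 22.6% ± 1.58. The shares of these 4 members did not overlap between the groups, nor did those of ADAM12, ADAM17 and ADAM19, while those of ADAM22 did. The shares of a library are parts of a single sum, so a larger share of ADAM9 makes the other shares smaller. ADAM8, whose shares did not overlap, did overlap in normalized counts. In normalized counts, the groups did not overlap for 46.3% of all tested genes, and no such value was computed for shares. The level of ADAM10 was 2.01 ± 0.130 times that of ADAM19 in control and 4.45 ± 0.324 times in knockout libraries, and 1.58 ± 0.155 and 1.98 ± 0.0389 times that of ADAM17, whose level rests on the transcript used. These shares and ratios come from the same contrast and carry no test. They also hold the GC trend, without which the fold changes were 0.27 for ADAM9 and 0.19 for ADAM10, and -0.037 for ADAM8 and -0.069 for ADAM15.

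**Figure D4:**
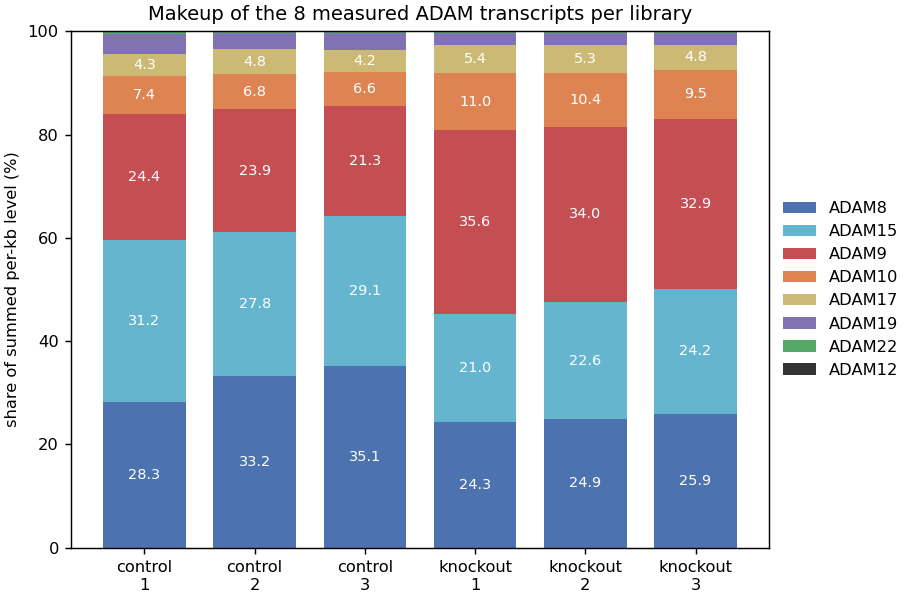
Share in percent of each ADAM member in the summed level per kilobase of the 8 measured members, 1 bar a library. ADAM9 and ADAM10 take larger and ADAM8 and ADAM15 smaller shares in all 3 knockout libraries, and ADAM22 and ADAM12 are thin slices at the top.

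The genes with profiles most like ADAM10 over the 6 libraries, by the root mean square distance of centred log2 values, were PRPF4B (0.022), SMARCAD1 (0.028) and G2E3 (0.030). Their fold changes were 0.65, 0.67 and 0.69, and their GC content was 37.5%, 36.0% and 32.9%. For ADAM19 they were SLC48A1 (0.031), ASF1B (0.033) and GLIPR2 (0.038), with fold changes of -0.45, -0.45 and -0.49 and a GC content of 57.9%, 58.4% and 50.4%. The distance includes the difference between the groups, so similar fold changes follow from how these genes were picked. GC content went with the fold change across the whole table.

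Genes known to control ADAM activity comprise the TIMP inhibitors, RECK, the iRhom partners of ADAM17 with FRMD8, the tetraspanins that escort ADAM10, and the convertases. Of 16 tested, 0 were higher and 5 lower, beside 18.9% and 14.4% of all tested genes, with a median of -0.21 beside -0.017. With the trend removed 0 and 2 were called, beside 4.08% and 5.95%, and the median was -0.11 beside -0.018. TIMP3, the TIMP known to inhibit ADAM17, held 10918, 13887 and 15228 normalized counts in control and 9236, 9575 and 9530.4 in knockout libraries (-0.48, SE 0.099, adjusted p = 0.0016; trend removed -0.48, adjusted p = 0.01). TSPAN15, a tetraspanin partner of ADAM10, held 919, 1039 and 1062 in control and 716, 565 and 662 in knockout libraries (-0.64, SE 0.12, adjusted p = 0.0007; trend removed -0.41, adjusted p = 0.026). FRMD8, which stabilises the iRhom complex, was lower at -0.36 (adjusted p = 0.0076; trend removed -0.14, adjusted p = 0.18).

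Among known substrates of ADAM10 and ADAM17, 5 of 37 tested were higher and 10 lower (median -0.14), beside 18.9% and 14.4% of all tested genes. With the trend removed 1 and 6 were called (median -0.092), beside 4.08% and 5.95%, and 0 and 4 passed both fits. SORL1, a sorting receptor (-0.68, adjusted p = 0.00018; trend removed -0.75, adjusted p = 0.00072), TNFRSF1B, a TNF receptor (-0.67, adjusted p = 0.00023; trend removed -0.46, adjusted p = 0.0093), and NOTCH1 (-0.38, adjusted p = 0.0056; trend removed -0.21, adjusted p = 0.035) were lower in both. EREG, an EGF receptor ligand (0.72, adjusted p = 0.0016), ALCAM, an adhesion molecule (0.41, adjusted p = 0.0022), and the receptor MET (0.35, adjusted p = 0.0073) were called higher only before the trend was removed. Removing the trend left EREG at 0.28 (adjusted p = 0.18), ALCAM at 0.028 (adjusted p = 0.8) and MET at 0.053 (adjusted p = 0.71).

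**Figure D5:**
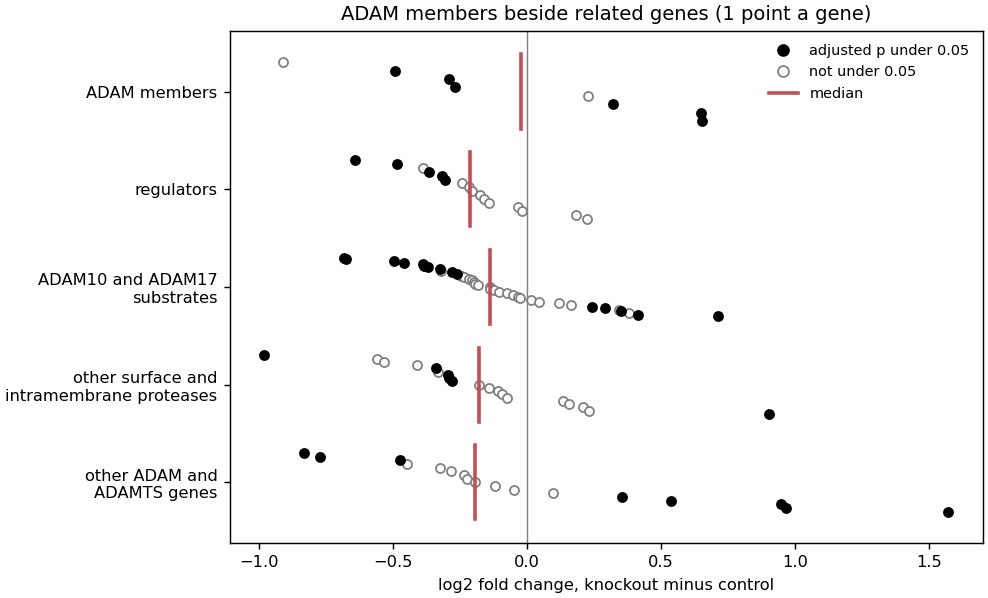
Log2 fold change (knockout minus control) of each tested gene of the ADAM members and of the related lists; filled points have a limma adjusted p under 0.05 and red lines are medians. The members lie on both sides of 0, and the medians of the regulators and substrates are -0.21 and -0.14.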

How the data were processed

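RNA of MDA-MB-231 cells was sequenced in 3 control and 3 knockout libraries. The authors deposited, per the file headers, a table of normalized count values (signal: reads divided by a size factor per library) with a log2 fold change and p-values from their own comparison. Tools listed in the submitters' processing notes are DESeq2 1.30.1, featureCounts 1.5.0, STAR 2.4.0 and FastQC, with the build GRCh38.p13. For the strand setting, nothing is given in the sources used here. The deposited adjusted p-value (blank for 2337 genes) and log2 fold change were used only as the authors' calls and directions, and the Wald statistic of DESeq2 (a score per gene, per the file headers) was not used. Dividing by the value of 1 read gave whole reads for 100% of values (tolerance 0.01). The highest row number, 19211, exceeds the 15706 rows, and each listed gene has at least 1 read in every library, so genes are missing by a step not given here.

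The members and the lists of related genes were chosen with earlier results of these data known. Log2(normalized count + 1) values of genes with a mean of at least 10 were fitted with limma 3.58.1 (trended variance, 3 against 3 libraries, no block) in R 4.3.3, with Benjamini-Hochberg adjustment over all tested genes and a threshold of 0.05. In a second fit, natural splines (5 terms each) of GC content and log2 length of the longest GENCODE 29 transcript were subtracted from each library first, for genes with annotation. The named related genes were the 3 of each list with the smallest adjusted p in each direction. Alternatives were a mean of at least 50, no filter, pseudocounts of 0.5 and 8, quantile normalization, a replicate block, each library left out, and edgeR 4.0.16 and DESeq2 1.42.0 on the recovered reads. Trend removal with a library left out, or from coding transcripts, was added after seeing the data. The fits were also run on simulated data that did not carry the separate GC trend of each library. Those runs do not show how well the calls above hold.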

Additional observations from a re-analysis of the deposited data

How the results depend on the processing

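ADAM9, ADAM10 and ADAM19 kept direction and call in all 18 settings planned for each, trend removal on all libraries included. In the unplanned fits with the trend removed and 1 library left out, they were called in 4, 2 and 5 of 6. Of 143 planned member settings, 4 reversed a sign: ADAM17 (-0.11) and ADAM22 (-0.16), each with the GC and length trend removed, with and without the replicate block. The cause was not tested. With the trend removed, 1 member was called lower, 2 regulators lower, 1 substrate higher and 6 lower, 0 other proteases higher and 2 lower, 1 other ADAM or ADAMTS gene lower, and 1463 of all genes against 4859 without trend removal. With trend removal and the replicate block these were 1 member lower, 1 regulator lower, 2 substrates higher, 0 other proteases higher and 1 lower, 1 other ADAM or ADAMTS gene lower, and 1313 genes. Same-numbered libraries deviated together by r = 0.066, 0.0063 and 0.13, and differently numbered ones by -0.099 to 0.027. Control replicate 2 correlated best with knockout replicate 1. These few correlations do not settle whether the numbers mark pairs. The replicate block alone called 3 members higher and 3 lower, 8 regulators lower, 3 other proteases higher and 6265 genes. Other proteases called higher were 1 in the limma fit, and 2 with a mean of at least 50, quantile normalization, DESeq2 or the authors' deposited adjusted p. Leaving out 1 library at a time gave 1 to 3 members lower, 3 to 8 regulators lower, 2 to 6 substrates higher and 2 to 16 lower, 1 to 2 other proteases higher and 0 to 9 lower, 3 to 4 other ADAM or ADAMTS genes higher and 2 to 5 lower. All genes called ranged from 2143 (without knockout replicate 1) to 6168, with 2499 without knockout replicate 2 and 3154 without control replicate 3. With the trend removed as well, it gave 0 to 2 members higher and 0 to 3 lower. ADAM12 had the fewest reads of the members, at 18 to 46, and ADAM22 the next fewest, at 254 to 392. Counting error in the lowest library was 23.6% and 6.27%.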

Other observations

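The relatives outside the members comprise other ADAM genes, the secreted ADAMTS proteases, which remodel extracellular matrix, and ADAMTS-like genes. Of 17 tested, 5 were higher and 3 lower, beside 18.9% and 14.4% of all tested genes. With the GC and length trend removed 4 were higher and 1 lower, beside 4.08% and 5.95%. The 5 higher were ADAMTS proteases, and the 1 that stayed lower was ADAMTSL4. ADAMTS15 and ADAMTS17 were lower at -0.47 and -0.83 (adjusted p = 0.0014 and 0.008; trend removed adjusted p = 0.064 and 0.059). ADAMTS1, which cuts matrix proteoglycans, held 185, 205 and 266 normalized counts in control and 425, 437 and 411 in knockout libraries (0.97, SE 0.15, limma adjusted p = 0.00022; trend removed 0.97, adjusted p = 0.0025). ADAMTS6 was higher by 0.95 (adjusted p = 0.00025; trend removed 0.65, adjusted p = 0.025) and ADAMTS12 by 0.35 (adjusted p = 0.0069; trend removed 0.32, adjusted p = 0.026). ADAMTSL4, a relative without a protease domain, was lower at -0.77 (adjusted p = 0.00039; trend removed -0.55, adjusted p = 0.0043).

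Among 19 tested other surface and intramembrane proteases, 1 was higher and 5 lower, beside 18.9% and 14.4% of all tested genes, or 0 and 2 with the trend removed, beside 4.08% and 5.95%. MMP16, a membrane-type matrix metalloprotease, was higher at 0.90 (adjusted p = 0.0065; trend removed 0.42, adjusted p = 0.23). MMP17, another membrane-type enzyme, was lower at -0.98 (adjusted p = 0.011; trend removed -0.76, adjusted p = 0.11). APH1A, a gamma-secretase subunit, was lower at -0.28 (adjusted p = 0.012; trend removed -0.087, adjusted p = 0.31). BACE2, a beta-secretase relative, was lower in both fits at -0.29 (adjusted p = 0.019) and -0.35 (adjusted p = 0.013).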
